A study of Homo sapiens with 4 samples.

Results

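The peptide precursor genes GRP, GAL, CALCA, CALCB, SPX, GAST, NTS, VGF and GHRL were followed across 4 arrays of human neuroendocrine tumour cells. They were chosen by hand, with the knockdown and line differences of these arrays already known, and taken as every probe set annotated to one of the 9 symbols. This gave 15 probe sets of 54613 in the table, and 9 genes of 19775. The cells were QGP1, from a neuroendocrine tumour of the pancreas, and NCI-H727, from one of the bronchus. Each line received an siRNA by electroporation, at a final 50 nM, which either targeted DAXX (DAXX-KD) or served as negative control (control), and each of the 4 groups was measured once. DAXX is a chaperone that deposits histone H3.3 together with ATRX. The labels name 2 DAXX siRNAs without saying whether they were mixed, and all 4 groups were electroporated. The line names are those of the sample titles, since the labels' source field names QGP1 for the NCI-H727 samples too and their description field calls all 4 samples ALDH high QGP1 cells.

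Neuropeptides are made as longer precursors, sorted into dense-core granules, cut at pairs of basic residues and often amidated at the carboxyl end. Neuroendocrine cells of gut, pancreas and airway release them, and tumours of these cells are known to secrete peptides that their tissue of origin makes little of. Gastrin-releasing peptide (GRP) is the product of pulmonary neuroendocrine cells, calcitonin (CALCA) that of thyroid C cells, gastrin (GAST) that of antral G cells and ghrelin (GHRL) that of the stomach.

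Values are RMA expression on the log2 scale, so a difference of 1 is a 2-fold change. Array medians lay between 5.31 and 5.36. A value of 4.85, the 40th percentile of all probe sets, served as the filter level under which signal is dim and differences are compressed, and 14648 genes had a mean at or above it. DAXX itself was 3.90-fold lower in DAXX-KD QGP1 and 2.31-fold lower in DAXX-KD NCI-H727 at its brighter probe set. All 10 neuroendocrine markers and all 5 epithelial markers lay above the filter level on all 4 arrays, as did 2 of 5 fibroblast, 2 or 3 of 4 endothelial and 1 or 2 of 3 measured leukocyte markers per array. The leukocyte gene PTPRC, the fibroblast genes COL1A2, COL3A1 and LUM and the endothelial gene CDH5 lay under it on all 4. The fibroblast genes COL1A1 (7.25 to 7.66) and DCN, the endothelial genes PECAM1 (5.43 to 6.80) and VWF and the leukocyte gene CD3E lay above it on all 4. The endothelial gene KDR and the leukocyte gene CD14 lay above it in NCI-H727 but not on every QGP1 array. Markers of origin did not sort by title. The lung factor NKX2-1 read 8.77 and 8.38 in control and DAXX-KD QGP1 but 3.35 and 3.23 in NCI-H727, and the islet factor NKX2-2 read 4.80 and 5.93 in QGP1 but 9.17 and 9.25 in NCI-H727. The islet genes PAX6 (6.64 and 6.77 in QGP1, 5.12 and 5.67 in NCI-H727) and ISL1 (9.61 and 9.46, 8.82 and 8.94) were instead higher in QGP1, the airway factor FOXJ1 was higher there too (7.57 and 7.30, 6.08 and 6.70), and PDX1, MNX1, FOXA2, SFTPB and SFTPC were near equal in the lines. Of the pancreatic exocrine and ductal markers, MUC1 was higher in QGP1 (8.76 and 9.02) than in NCI-H727 (5.50 and 5.92). CELA3A was a little lower in QGP1 (5.28 and 5.29, 5.84 and 6.04). CPA1, CFTR and the airway gene SCGB1A1 lay under the filter level on all 4 arrays. Every direction between lines given here therefore rests on the titles.

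All 9 genes had a mean past the filter, each judged by its brightest probe set, and 14 of the 15 probe sets passed. Of the genes, 6 lay above the level on all 4 arrays, namely GAL, CALCA, CALCB, GAST, NTS and VGF. GRP and SPX passed through their QGP1 values and GHRL through its NCI-H727 values.

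**Figure D1:**
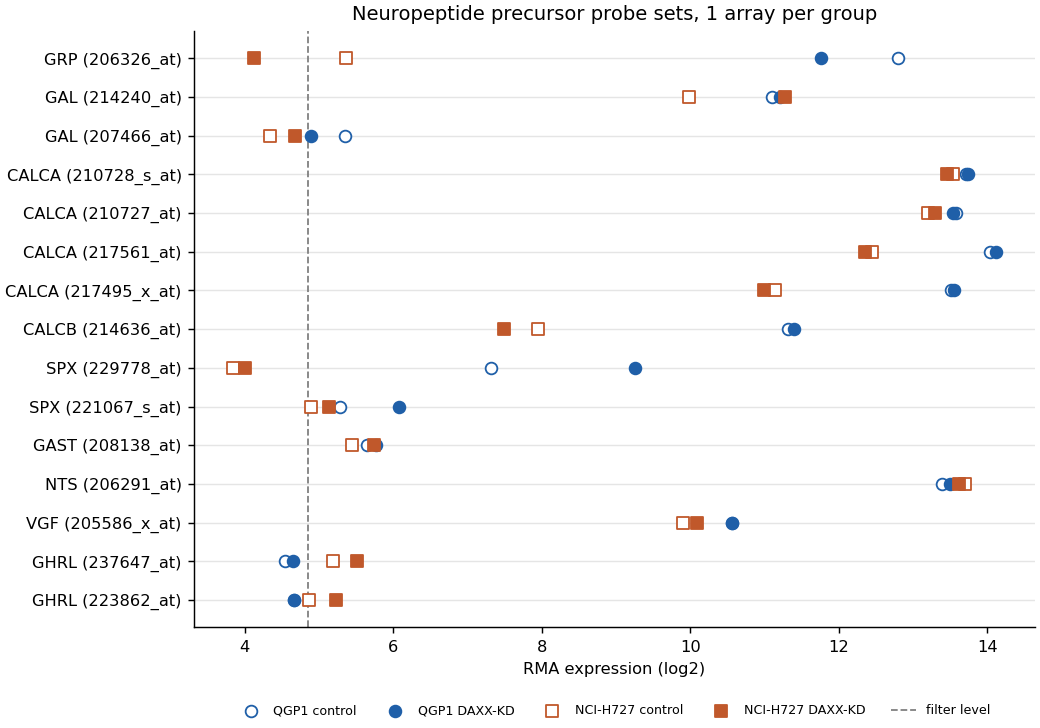
RMA expression (log2, horizontal axis) of the 15 probe sets of the 9 precursors, with 1 point per array; open symbols are control, filled symbols DAXX-KD, circles QGP1 and squares NCI-H727, and the dashed line is the filter level of 4.85. GRP, CALCB and SPX (229778_at) separate the lines widely, the points of NTS and of GAST lie close together, and nearly equal values overlap.

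Of the 9 genes GRP, which acts on bombesin receptors as a growth factor of airway neuroendocrine cells, differed most between the lines. It read 12.80 in control QGP1, 11.76 in DAXX-KD QGP1, 5.37 in control NCI-H727 and 4.12 in DAXX-KD NCI-H727. Both QGP1 arrays were thus far above both NCI-H727 arrays, and within each line the DAXX-KD array was the lower one. The control arrays differed by -7.44 (NCI-H727 minus QGP1, a 173-fold lower level), with the NCI-H727 value close to the filter level, where differences are compressed. This placed GRP 12th from the lowest of 14648 genes, and the DAXX-KD arrays differed by -7.63. The knockdown difference was -1.04 in QGP1, where 48.5% of the control signal was left, and -1.24 in NCI-H727, where the second value lay under the filter level. GRP was the 32nd lowest gene of the knockdown comparison in QGP1 and the 94th lowest in NCI-H727. It has 1 probe set here, so no second reading of the gene was at hand.

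SPX, the precursor of spexin, which shares receptors with galanin, was higher in DAXX-KD QGP1. Its brighter probe set, 229778_at, read 7.31 in control QGP1, 9.25 in DAXX-KD QGP1, 3.84 in control NCI-H727 and 4.0 in DAXX-KD NCI-H727. The QGP1 difference of 1.94 (3.84-fold higher) was the third highest of all genes past the filter, while both NCI-H727 values were dim and differed by 0.17. The dimmer probe set, 221067_s_at, read 5.28, 6.08, 4.90 and 5.14 in the same order. It gave 0.80 in QGP1 and 0.24 in NCI-H727, the same direction as the first probe set at a smaller size. Between lines the probe sets were further apart, with control differences of -3.48 and -0.38.

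Galanin (GAL), a peptide of gut and brain neurons that inhibits hormone release, stood out in NCI-H727. At probe set 214240_at it read 11.11 in control QGP1, 11.21 in DAXX-KD QGP1, 9.99 in control NCI-H727 and 11.27 in DAXX-KD NCI-H727. The control NCI-H727 array was the low one, and the other 3 lay within a narrow range. The knockdown difference was 1.28 in NCI-H727 (2.43-fold higher, 6th highest of all genes past the filter) and 0.10 in QGP1. NCI-H727 was accordingly lower than QGP1 by 1.12 in the control arrays, with a difference of 0.06 in the DAXX-KD arrays. The second GAL probe set, 207466_at, had a mean under the filter level, with values of 5.35, 4.90, 4.34 and 4.67. It gave 0.33 in NCI-H727 and -0.45 in QGP1, so the NCI-H727 direction appeared at both probe sets and the QGP1 direction did not.

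The calcitonin gene family split by probe set and by gene. CALCA yields calcitonin or CGRP-alpha, a vasodilator peptide, by alternative use of its last exons, and CALCB encodes CGRP-beta. The genes lie on chromosome 11 with 1 annotated gene between them, the pseudogene OR7E41P. The probe set 210728_s_at read 13.72 and 13.74 in control and DAXX-KD QGP1 and 13.54 and 13.46 in NCI-H727, and 210727_at read 13.58, 13.54, 13.21 and 13.30. At these probe sets NCI-H727 lay below QGP1 by 0.18 and 0.37 in the control arrays. The other 2 CALCA probe sets separated the lines more widely. Probe set 217561_at read 14.04, 14.12, 12.44 and 12.35, a control difference of -1.60, and 217495_x_at read 13.51, 13.55, 11.15 and 11.00, a control difference of -2.36. The files do not say which CALCA transcript each probe set reads, and the x_at suffix marks probes that may bind other transcripts. Several of these values are close to the highest of the table, 14.39.

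CALCB resembled the wider pair. It read 11.32 in control QGP1, 11.40 in DAXX-KD QGP1, 7.95 in control NCI-H727 and 7.50 in DAXX-KD NCI-H727. The lines did not overlap, with a control difference of -3.36 (10.3-fold lower in NCI-H727) and a DAXX-KD difference of -3.90. The knockdown difference was 0.08 in QGP1 and -0.46 in NCI-H727. Over the 4 CALCA probe sets it ran from -0.04 to 0.08 in QGP1 and from -0.15 to 0.09 in NCI-H727.

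NTS and VGF were bright on all 4 arrays, and VGF was lower on both NCI-H727 arrays than in QGP1. Neurotensin (NTS), a gut and brain peptide with trophic effects, read 13.39 and 13.51 in QGP1 and 13.70 and 13.62 in NCI-H727, control first. Its knockdown differences were 0.12 and -0.08, and the control arrays of the lines differed by 0.31. VGF, a granin-like precursor that is cut into several bioactive peptides, read 10.56 in both QGP1 arrays and 9.91 and 10.09 in NCI-H727. Its NCI-H727 knockdown difference was 0.18, and NCI-H727 lay below QGP1 by 0.66 in the control arrays and by 0.48 in the DAXX-KD arrays. Its 1 probe set also has the x_at suffix.

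Of the stomach hormones, GAST lay a little above the filter level on all 4 arrays and GHRL near or under it. GAST read 5.64 and 5.76 in QGP1 and 5.45 and 5.75 in NCI-H727, and its knockdown differences were 0.12 and 0.30. The brighter GHRL probe set, 237647_at, read 4.55 and 4.65 in QGP1, under the filter level, and 5.19 and 5.51 in NCI-H727. The other, 223862_at, read 4.67 on both QGP1 arrays, and 4.87 and 5.23 in NCI-H727. Both GHRL probe sets were higher in DAXX-KD NCI-H727 than in its control, by 0.33 and 0.36, and close to the filter level throughout.

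The 9 genes were chosen on these differences, so no p-value is given for any of them, and 1 array per group gives no error between cultures. As a yardstick, probe sets of the same gene disagreed with an SD of 0.202 for the QGP1 knockdown difference and 0.275 for the NCI-H727 one. In QGP1, 2 of the 15 probe sets were above that SD (both of SPX), 2 were below it (GRP and the dim GAL probe set) and 11 lay within it, beside 18.6% of all probe sets past the filter above it and 15.1% below. In NCI-H727, 5 were above (both of GAL, both of GHRL and that of GAST), 2 below (GRP and CALCB) and 8 within, beside 13.4% above and 19.3% below over all probe sets. Nothing is read from these counts. GAST exceeded the yardstick only narrowly.

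At 2-fold or more, SPX was the 1 of 9 genes higher in DAXX-KD QGP1, against 0.259% of all genes past the filter, and GRP the 1 of 9 lower, against 0.232%. In DAXX-KD NCI-H727 GAL was the 1 of 9 higher, against 0.177%, and GRP the 1 of 9 lower, against 1.32%. Those genes were selected on these same differences, so nothing is read from the shares. With a second quantile normalization the GRP difference in QGP1 was -0.98, just short of 2-fold, and with the probe sets of a gene averaged the GAL difference in NCI-H727 was 0.81. The median over the 9 genes was 0.10 in QGP1 and 0.17 in NCI-H727, beside 0.02 in each line over all genes.

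**Figure D2:**
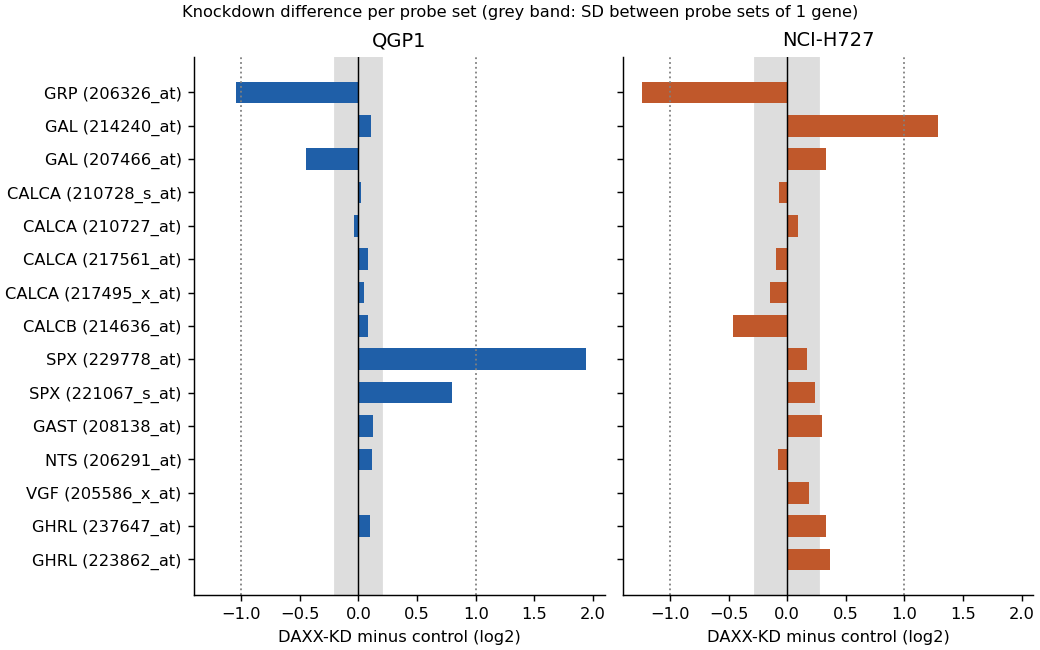
DAXX-KD minus control (log2, horizontal axis) for each of the 15 probe sets, QGP1 on the left and NCI-H727 on the right, 1 array per group. The grey band is the SD between probe sets of 1 gene (0.202 and 0.275) and dotted lines mark 2-fold; GRP is past the lower line in both lines, SPX (229778_at) past the upper line in QGP1 and GAL (214240_at) past it in NCI-H727.

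Between the control arrays, 4 of 9 genes, GRP, GAL, CALCB and SPX, were at least 2-fold lower in NCI-H727, against 10.6% of all genes, and 0 were at least 2-fold higher, against 11.3%. The median over the 9 was -0.66, beside 0.002 over all genes. The DAXX-KD arrays gave a median of -0.28, and GAL was not lower there. The genes were chosen with the line differences of all 4 arrays known, and GRP and SPX passed the filter only through QGP1, so nothing is read from these counts or medians. Probe sets of 1 gene disagreed more between lines than within a line, with an SD of 0.645 in the control arrays, so the NTS and GHRL differences of 0.31 and 0.64 lay within it and that of VGF just past it.

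**Figure D3:**
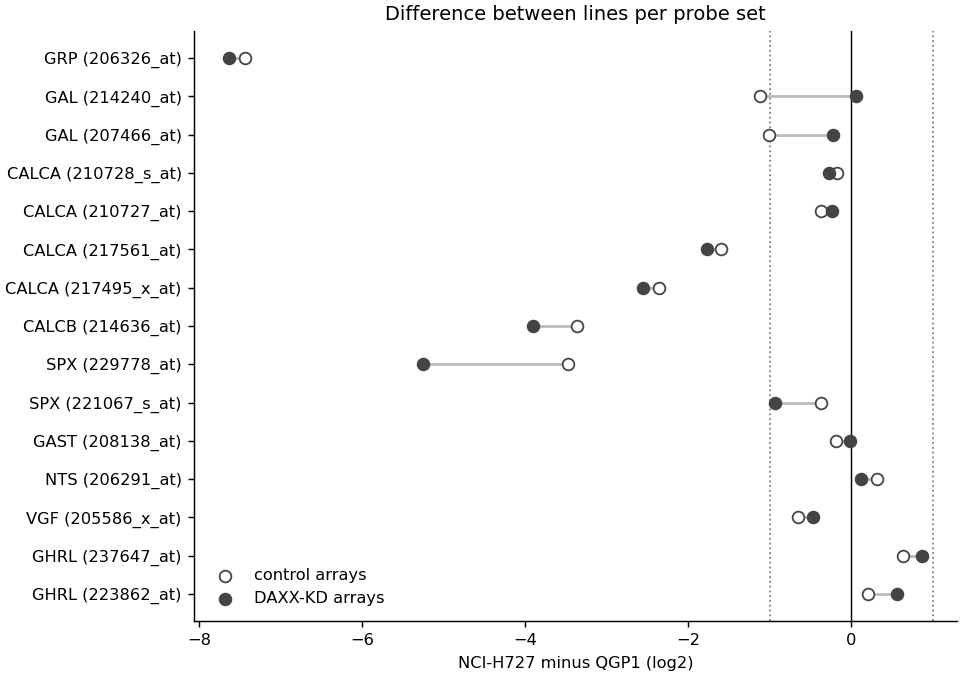
NCI-H727 minus QGP1 (log2, horizontal axis) for each of the 15 probe sets, open points for the control arrays and filled points for the DAXX-KD arrays, with dotted lines at 2-fold. GRP lies at -7.44 and -7.63, the GAL points of 214240_at are apart (-1.12 and 0.06), and the 4 CALCA probe sets run from -0.18 to -2.36 in the control arrays.

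The genes nearest in pattern were named by the root mean square distance between centred log2 profiles over the 4 arrays. Nearest to GRP were RGS4, a brake on G protein signalling, at 0.30 (13.28, 12.49, 5.33 and 4.76 in the order used above), and SH3BGRL at 0.35. Nearest to GAL were the matrix glycoprotein THBS1 at 0.16 (8.65, 8.44, 7.62 and 8.88) and the Wnt receptor FZD6 at 0.20. Nearest to SPX were CT75 at 0.33 and PALMD at 0.47, of which CT75 read 7.01, 8.09, 3.12 and 2.98. With 4 points many genes come close by such a measure, and it says nothing of shared control.

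Cyclic AMP response elements are known in the promoters of several neuropeptide genes, and the RefSeq promoter table (GRCh38.p14) was searched for them in the 250 bases before the start site. It held 7 of the 9 genes, all but GAL and CALCB. The whole element TGACGTCA, a palindrome, was found in VGF alone of the 7, and in 1.65% of all promoters. Its shorter core TGACG, counted on both strands as TGACG or CGTCA and overlapping the whole element, was found in GRP, CALCA, NTS and VGF, and in 21.2% of all promoters. Those 4 genes are shown with the element in capitals, 30 bases each and 5′ to 3′ on the gene's strand, because they include the gene that differed most between lines (GRP) and 3 that lay above the filter level on all 4 arrays.
VGF, chr7:101165630-101165659, minus strand: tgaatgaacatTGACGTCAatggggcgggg
GRP, chr18:59220058-59220087, plus strand: gctatagggagaCGTCAgagcgctctggtc
CALCA, chr11:14972444-14972473, minus strand: gaagcatgagggTGACGcaacccaggggca
NTS, chr12:85874091-85874120, plus strand: attagggaagatCGTCActttcactcaagg
The elements begin 79 bases before the start site in VGF, 88 in GRP, 110 in CALCA and 192 in NTS, which has another core 234 bases before it. In VGF and GRP the 250 bases before the start site overlap the annotated span of the gene, and in CALCA and NTS they do not. A TATAAA, on either strand (its reverse is TTTATA), was present in GRP, VGF and GAST, and in 10.7% of all promoters. SPX and GHRL had neither motif in this window. These matches describe letters and no binding was measured.

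Receptors of the 9 peptides were mostly dim. Of 18 listed receptor genes 17 were measured and 7 passed the filter; SORT1 was not analysed here. The bombesin receptor GRPR read 5.33 and 5.05 in QGP1 and 5.0 and 5.21 in NCI-H727, and its relatives NMBR and BRS3 lay under the filter level on all 4 arrays. Of the galanin and spexin receptors, GALR3 read 6.55 and 6.56 in QGP1 and 7.06 and 7.31 in NCI-H727, while GALR1 and GALR2 stayed under the level. RAMP1, which joins the receptor CALCRL to form the CGRP receptor, read 6.06 and 6.34 in QGP1 and 8.82 and 8.95 in NCI-H727, and CALCRL stayed under the level on all 4. RAMP2, whose pairing with CALCRL makes an adrenomedullin receptor, read between 5.32 and 5.46. RAMP3 reached 4.88 in control QGP1 and was under the level elsewhere, and the calcitonin receptor CALCR read 5.09 and 5.18 in NCI-H727 and under the level in QGP1.

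The neurotensin receptor NTSR1 read 5.29 and 5.44 in QGP1 and 5.37 and 5.97 in NCI-H727, and NTSR2 lay under the level. The cholecystokinin receptor CCKAR read between 5.84 and 6.02 and the gastrin receptor CCKBR between 4.31 and 4.91. The ghrelin receptor GHSR read between 4.79 and 4.96, and C3AR1, a reported receptor of a VGF peptide, lay under the level. No receptor reached a 2-fold knockdown difference in a line.

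These receptors, and the peptide and processing genes that follow, were lists of related genes, and a joint limma fit over all genes with line and treatment as terms tested them with Benjamini-Hochberg adjustment. The fit used all 4 arrays and had 1 residual degree of freedom. Its SEs and p-values rest on how far the 2 pairs of arrays disagreed, moderated over all genes. With 1 array per group they hold no error between cultures, here and for the genes below. For the knockdown limma called 0 of 14648 genes (0% higher and 0% lower) at an adjusted p of 0.05, with 1014 genes at an unadjusted p under 0.05, and 5 genes with an intensity trend in its prior. It called 0 of the 49 listed genes past the filter, 3 of them at an unadjusted p under 0.05. For the lines it called 23.2% of all genes higher and 25.1% lower in NCI-H727, and 2 of 7 receptors were higher and 0 lower. RAMP1 was higher by 2.68 (SE 0.13, limma adjusted p = 0.000103) and GALR3 by 0.63 (SE 0.14, limma adjusted p = 0.0151), each in 2 of 2 pairs of arrays.

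Among other peptide precursors VIP and ADCYAP1 were far higher in NCI-H727, and NMU and SST lower. Of 42 listed genes 39 were measured and 25 passed the filter, of which 7 were higher and 4 lower in NCI-H727 in the joint limma fit, beside the 23.2% and 25.1% of all genes, and nothing particular to the list is read from this. VIP, a vasodilator and secretagogue peptide, read 2.97 and 2.82 in QGP1 and 10.29 and 10.91 in NCI-H727, a difference of 7.70 (SE 0.21, limma adjusted p = 2.18e-05). ADCYAP1, the precursor of the related peptide PACAP, read 3.28 and 3.07 in QGP1 and 9.97 and 8.70 in NCI-H727, a difference of 6.16 (SE 0.27, limma adjusted p = 7e-05). Both lay under the filter level in QGP1 and passed it through NCI-H727, so they had to differ and the p-values add no support. The natriuretic peptide NPPB was higher by 3.27 and adrenomedullin (ADM), of the calcitonin family, by 2.61. CHGA, the granin chromogranin A, was higher by 1.05. The lower genes were led by NMU, neuromedin U, at -2.70 and somatostatin (SST) at -1.62, with SCG3 at -0.87 and SCG2 at -0.56. NPPB in QGP1 (5.03 and 4.86) and NMU in NCI-H727 (5.13 and 4.90) read close to the filter level, where differences are compressed. In the knockdown comparisons the median of the 25 was -0.05 in QGP1 and 0.06 in NCI-H727. ADCYAP1 was the 1 gene of these past 2-fold, at -1.27 in NCI-H727 (DAXX-KD minus control), beside 1.32% of all genes at least 2-fold lower there. Its second probe set gave -1.87 in NCI-H727. In QGP1 the probe sets disagreed, at -0.21 and, between values of 3.80 and 4.92, 1.12. The relative of GRP, neuromedin B (NMB), differed by 0.34 and 0.51 and did not pass the test.

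Among the processing genes SCG5 was far lower in NCI-H727 and DPP4 far higher. Of 21 listed 18 were measured and 17 passed the filter, of which 5 were higher and 5 lower in NCI-H727 in the joint limma fit, again beside 23.2% and 25.1% of all genes. SCG5, the chaperone of the convertase PCSK2, read 12.93 and 12.55 in QGP1 and 6.55 and 6.13 in NCI-H727, a difference of -6.40 (SE 0.13, limma adjusted p = 1.77e-05). PAM, which amidates peptides such as GRP and gastrin, was lower by 1.31 and the convertase inhibitor PCSK1N by 1.20. Neurotensin-cleaving NLN was lower by 0.78 and the sulfotransferase TPST1 by 0.63. DPP4, a protease that trims peptide hormones, read 4.24 and 4.14 in QGP1 and 9.37 and 9.45 in NCI-H727, a difference of 5.22 (SE 0.13, limma adjusted p = 1.92e-05). Its QGP1 values too lay under the filter level, with the same limits as for VIP. CPD, QPCT, FURIN and ECE1 were higher by 0.66, 0.65, 0.55 and 0.41. The ECE1 call was lost with no filter, without x_at and s_at probe sets and with an intensity trend, and the FURIN call with no filter. For NLN and CPD the size depended on the probe set. The NLN probe set 228797_at gave -2.55 and -3.23 in the control and DAXX-KD arrays, 225942_at gave -2.46 and -2.25, and 225944_at gave -1.09 and -1.51. For NLN, 234762_x_at gave smaller differences of -0.42 and -0.31, and 224063_at, with a mean under the filter level, gave -0.90 and -1.29. The other 3 CPD probe sets past the filter gave between 1.19 and 2.32, while 229600_s_at, with a mean under the filter level, gave -0.26 and -0.01. In the knockdown comparisons 0 of the 17 reached 2-fold at the probe set used for the gene, and the medians were -0.09 in QGP1 and 0.02 in NCI-H727. The dimmer NLN probe set 228797_at did, at -1.01 in NCI-H727 (from 7.09 to 6.08), and gave -0.33 in QGP1. The NLN probe set used, 225943_at, gave 0.04 in NCI-H727, and the remaining ones gave between -0.43 and -0.10 there.

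**Figure D4:**
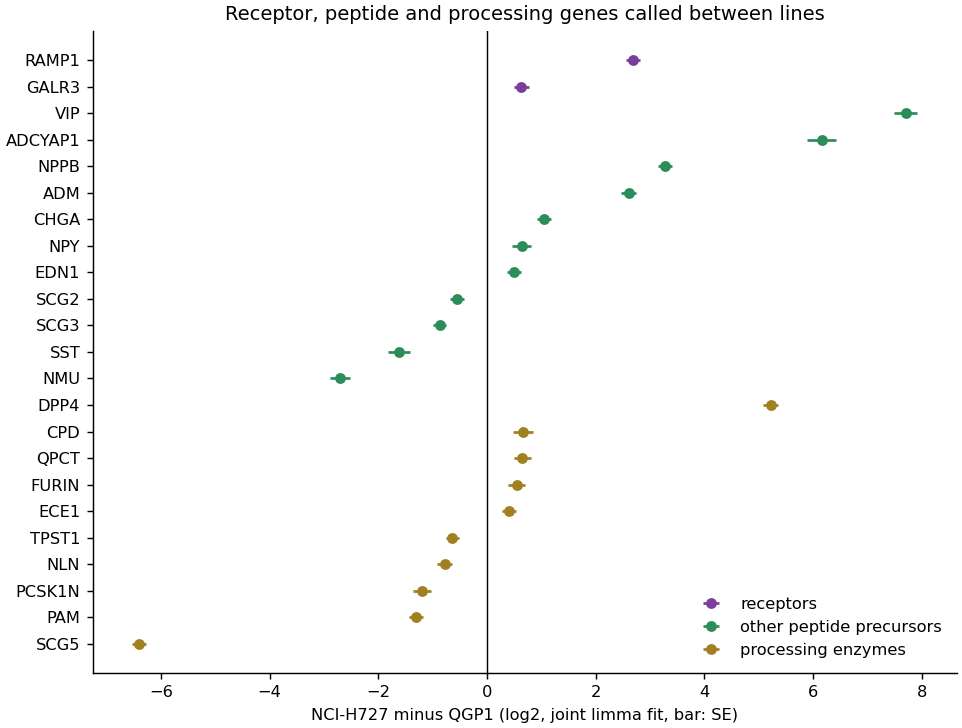
NCI-H727 minus QGP1 (log2, horizontal axis, points with SE bars from the joint limma fit over 4 arrays) for the 23 receptor, peptide and processing genes called at an adjusted p of 0.05. VIP, ADCYAP1 and DPP4 lie farthest to the higher side and SCG5 farthest to the lower side. The SE bars hold no error between cultures.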

How the data were processed

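RNA of 4 samples was hybridised to 4 one-colour Affymetrix arrays after 3' IVT labelling, per the labels' protocols. The authors deposited log2 expression values. Per the submitters' processing notes these came from RMA in affy 1.40.0 under R 3.0.3, which corrects background, quantile-normalizes the arrays and summarises each probe set. Changes common to most genes of one array are thereby lost. The number of arrays limits the precision.

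Groups came from the sample titles. Probe sets with 1 gene symbol in the platform annotation were used (41091; 1801 had several and 11721 none), and the Entrez identifiers of 41037 were in the RefSeq table. A gene was its probe set with the highest mean; genes with a mean under 4.85 were left out. The members, the lists and the tests were chosen with earlier results of these data known. The rule for named genes was every member, every receptor, and of the other lists up to 6 genes called by limma or past 2-fold per comparison; the remaining called genes named were chosen after their values were seen.

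limma 3.58.1 (R 4.3.3) fitted line and treatment over 14648 genes, with a prior of 4.18 degrees of freedom. Tested on simulated data over 14648 genes, it recovered 53 of 100 knockdown changes of 1 log2 unit and 100 of 100 of 2 units, with 5.56% of calls wrong; for the lines it recovered 960 of 1000 and 1995 of 2000, with 4.34% wrong. The simulated knockdown change was the same in both lines, with independent noise drawn from the fitted prior. Responses that differ between lines and spread between cultures were not simulated, so these rates may not hold for the measured arrays. Alternatives covered the probe set summary, the filter, the normalization, probe set suffixes, the prior and the block.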

Additional observations from a re-analysis of the deposited data

Results flagged for a closer look

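Some probe sets differed in opposite directions in the lines by more than the SD between probe sets of 1 gene; the difference between lines was not tested, since each rests on 1 array per group. The dim GAL probe set 207466_at gave -0.45 in QGP1 and 0.33 in NCI-H727. The receptor GALR2, under the filter level on all 4 arrays, gave -0.34 in QGP1 and 0.32 in NCI-H727. The second ADCYAP1 probe set, 206281_at, gave 1.12 in QGP1, between values of 3.80 and 4.92, and -1.87 in NCI-H727, between 9.08 and 7.20. A second probe set of the carboxypeptidase CPD, 201942_s_at, gave 0.36 in QGP1 and -0.40 in NCI-H727. The opioid precursor PENK, at 237774_at, gave -0.26 in QGP1 and 0.32 in NCI-H727, between values of 4.77 and 5.38.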

How the results depend on the processing

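Of 114 member differences under 5 alternatives, 107 moved by less than the SD between probe sets, 6 moved by more and 1 that was past 2-fold reversed. That was GAL between lines, -1.12 in the control arrays and 0.062 in the DAXX-KD arrays. The 107 include values that could not move, so they overstate stability. Averaging leaves the 5 genes with 1 probe set as they were. Leaving out x_at and s_at probe sets does the same for genes whose brightest probe set has neither suffix. When the probe sets of each gene were averaged, the GAL knockdown difference was 0.81 in NCI-H727, and 0 members were at least 2-fold higher in DAXX-KD NCI-H727. In QGP1 the GAL difference changed sign, from 0.10 to -0.17, and the SPX difference was 1.37. Between the averaged control arrays CALCA lay lower in NCI-H727 by 1.13, and the SPX difference went from -3.48 to -1.93. In the DAXX-KD arrays, without averaging, SPX differed between lines by -5.25. After a second quantile normalization 0 members lay past 2-fold on the lower side in DAXX-KD QGP1. VGF had no probe set left without x_at and s_at suffixes. The other counts of members past 2-fold, and the 23 companion genes called between lines (19 to 25 under the alternatives), stayed within 1.5 times, but not the same genes: ECE1, FURIN, EDN1, NPY, CHGA, QPCT and PAM were each lost under at least 1 alternative, the last 3 for want of a probe set without a suffix. No companion gene was called for the knockdown in limma with or without the cell line block. For the knockdown the joint fit compares arrays within a line, and for the lines it compares arrays of the same treatment. No paired analysis was possible by replicate number, because the labels give none. Signal near the filter level limits GHRL, GAST, the second GAL probe set, and GRP and SPX in NCI-H727.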
